A study of Mus musculus with 24 samples.

Results

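Immediate early genes are described here in 2 brain tissues, cerebellum and cortex, of mice deficient in DNA repair. The 10 genes, Fos, Fosb, Junb, Egr1, Egr2, Nr4a1, Npas4, Arc, Ier2 and Dusp1, were chosen by symbol, and all 10 were found among the 22562 genes listed for each tissue. Total RNA was sequenced from control mice, from mice without Aptx (Aptx-/-, deleted throughout the body), from mice labelled Atm Nes-cre, whose conditional Atm allele was removed in the nervous system by Nestin-cre, and from mice with both changes, called double mutants. The cerebellum gave 4 control, 2 Aptx mutant, 2 Atm mutant and 6 double mutant libraries. The cortex gave 4 control and 6 double mutant libraries. The study describes double mutants that were symptomatic at 10 months of age, with littermate controls, and reports that single mutants do not develop ataxia. Mice of either sex were used. Aptx and Atm act in the repair and signalling of DNA strand breaks.

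Immediate early genes are transcribed within minutes of a stimulus without new protein synthesis, because the transcription factors that act on them, such as CREB and the serum response factor, are already present in the cell. In neurons, calcium entry during synaptic activity is the best known trigger, and the transcripts are short-lived, so their level at the time of dissection reflects the recent past of the tissue. Fos, Fosb and Junb encode subunits of the transcription factor AP-1. Egr1 and Egr2 encode zinc-finger factors, Nr4a1 an orphan nuclear receptor and Npas4 a neuronal factor that responds to calcium. Arc encodes a postsynaptic protein that removes AMPA receptors from synapses, Dusp1 a phosphatase that switches off MAP kinases and Ier2 a small nuclear protein.

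The genes are placed here on build mm9, the build of the deposited values. Fos spans chr12:86814840-86818223 on the plus strand, Nr4a1 chr15:101097277-101105223 on the plus strand and Egr2 chr10:66998223-67004936 on the plus strand. Junb (chr8:87500811-87502617), Ier2 (chr8:87185230-87186751), Dusp1 (chr17:26642535-26645464) and Fosb (chr7:19888070-19895394) lie on the minus strand. Arc (chr15:74499513-74503000) and Npas4 (chr19:4984355-4989971) are also on the minus strand. Positions are those of the whole gene, exons and introns included, in the GENCODE annotation of that build.

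Promoter sequence was available for 7 of the 10 genes (RefSeq, build GRCm38.p6) and was searched over the 250 bases before each annotated start. All 7 genes, Fos, Fosb, Junb, Egr2, Nr4a1, Npas4 and Dusp1, held the core of the cyclic AMP response element, TGACG on either strand, in at least 1 window, whereas 17.8% of all 32851 windows did so. Here and below, genes with a match in any window are set beside shares of single windows, which is not a like comparison. The 7 genes had 11 windows, and some windows of Egr2 held no core. The full element TGACGTCA, which overlaps the core, was present in Dusp1 only of the 7, and in 1.55% of all windows. A CArG box, the motif of the serum response factor, was found in Egr2 only of the 7, and in 1.47% of all windows. The AP-1 motif TGANTCA was in none of the 7 and in 6.75% of all windows. A match describes the letters in this window and does not show that a factor binds there. Bases farther from the start were not searched, so a motif not found here may lie outside the window. The windows of 4 genes are shown 5′ to 3′ on the strand of the gene, with matches in capitals. Fos, Nr4a1 and Dusp1 are shown because they varied together across libraries, and Junb because it rose in the cortex. The shown windows cover chr12:85473640-85473889 for Fos, chr15:101266596-101266845 for Nr4a1, chr17:26508473-26508722 for Dusp1 and chr8:84978749-84978998 for Junb, all in GRCm38.p6.
Fos: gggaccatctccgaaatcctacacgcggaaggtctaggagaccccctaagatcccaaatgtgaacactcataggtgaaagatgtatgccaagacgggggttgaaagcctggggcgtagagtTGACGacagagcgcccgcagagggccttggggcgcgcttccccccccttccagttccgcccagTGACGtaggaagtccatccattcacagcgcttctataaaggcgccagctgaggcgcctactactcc
Nr4a1: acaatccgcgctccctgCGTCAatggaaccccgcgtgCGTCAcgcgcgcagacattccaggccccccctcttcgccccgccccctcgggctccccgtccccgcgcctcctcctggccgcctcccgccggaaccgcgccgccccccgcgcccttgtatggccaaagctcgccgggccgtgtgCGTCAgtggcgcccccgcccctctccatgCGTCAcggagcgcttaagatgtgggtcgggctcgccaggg
Dusp1: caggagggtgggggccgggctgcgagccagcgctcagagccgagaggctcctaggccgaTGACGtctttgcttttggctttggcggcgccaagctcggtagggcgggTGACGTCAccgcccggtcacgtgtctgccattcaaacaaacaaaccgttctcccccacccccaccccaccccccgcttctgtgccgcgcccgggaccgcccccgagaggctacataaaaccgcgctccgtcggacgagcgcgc
Junb: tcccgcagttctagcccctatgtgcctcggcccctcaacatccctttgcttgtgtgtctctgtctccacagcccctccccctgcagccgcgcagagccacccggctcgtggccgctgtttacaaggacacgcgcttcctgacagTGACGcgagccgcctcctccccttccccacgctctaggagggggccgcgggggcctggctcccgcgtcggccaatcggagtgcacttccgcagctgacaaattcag
In these windows the core occurred 2 times in Fos, 4 times in Nr4a1, 3 times in Dusp1 and 1 time in Junb, counted on both strands. Of the 3 in Dusp1, 2 overlap within the full element TGACGTCA, which holds the core on each strand. In Fos the core nearest the start began 66 bases before it, and in Nr4a1 40 bases before it.

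Levels are in FPKM, which scales reads by transcript length and library size, so genes can be set side by side. Some libraries stood apart. In cortex control 4 the uncharacterised gene Gm10654 took 58.1% of the summed FPKM, and the remaining genes summed to 232311 against 239529 to 256460 in the other cortex libraries, Gm10654 included there. Gm10654 was also high in cortex controls 1 to 3, at 4221, 7289 and 2951 FPKM. In the cortical double mutants it was at most 1.83 FPKM, so it separated all cortex controls from all cortical double mutants. The Y-linked Ddx3y was at 19.9 to 28.9 FPKM in double mutants 2, 3 and 5 of both tissues and in Aptx mutant 1, at 2.30 and 8.24 FPKM in the cerebellum and cortex of double mutant 6, and at most 0.103 FPKM in the remaining libraries, all controls among them. The values of the controls and of double mutant 6 carried more digits than those of the other libraries. Whether they were computed in another way is not given in the sources used here, and for the other 5 double mutants that difference from the controls cannot be told apart from genotype. Whether double mutant 6 holds RNA of more than 1 animal was not tested. Without it, 0 of the 8 genes were called in the cerebellum and 2 of the 10 in the cortex in double mutants against controls, as with it. Aptx was at 2.09 to 2.86 FPKM in the 8 cerebellum libraries without Aptx and at 3.11 to 3.67 FPKM in the other 6, which do not overlap. Atm was not lower in libraries labelled as Atm-deficient (7.45 to 9.14 FPKM in the cerebellum, controls 6.75 to 7.13 FPKM), so its level does not check that label. The 8 cerebellar markers summed to 727 to 1143 FPKM in cerebellum and 39.1 to 63.4 FPKM in cortex, and the 8 cortical markers to 46.4 to 84.7 FPKM in cerebellum and 163 to 270 FPKM in cortex, which matched the tissue labels. In bulk tissue, fewer cells of a type and less RNA per cell cannot be told apart.

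The tissues ranked the 10 genes differently. In the cerebellum the medians over 14 libraries were 15.3 FPKM for Dusp1, 13.3 for Fos, 7.24 for Nr4a1, 5.70 for Junb, 5.45 for Ier2, 5.38 for Arc, 2.06 for Egr1 and 1.07 for Npas4. Egr2 (at most 0.306 FPKM) and Fosb (at most 0.518 FPKM) stayed under 1 FPKM in every cerebellum library and were left out of the cerebellar tests. In the cortex the medians over 10 libraries were 36.4 FPKM for Arc, 22.02 for Junb, 18.8 for Nr4a1, 12.4 for Fos, 11.9 for Egr1, 9.31 for Dusp1, 4.83 for Npas4, 2.69 for Ier2, 2.27 for Egr2 and 1.57 for Fosb. In both tissues the ranges over libraries of neighbours in this order overlapped, so the order of neighbours was not settled beyond their spread. The tissues were deposited as separate tables, and the difference in level between them was not tested.

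**Figure D1:**
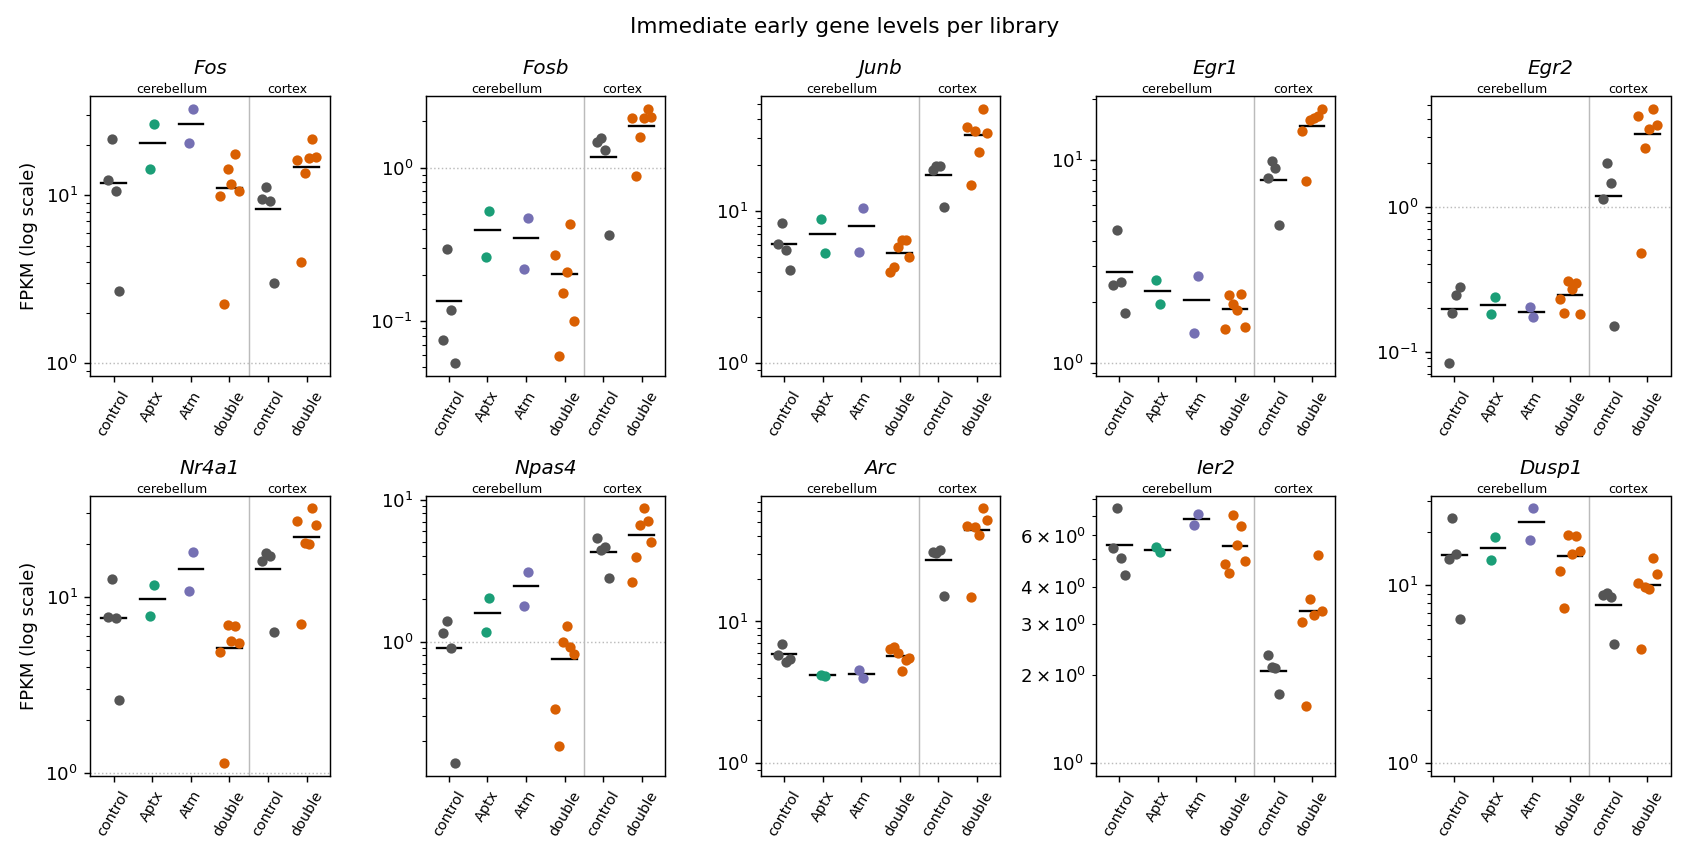
FPKM of each immediate early gene on a log axis, 1 point per library and a line at the group mean, for cerebellum (control, Aptx, Atm, double mutant) and cortex (control, double mutant); the dotted line marks 1 FPKM. Fosb and Egr2 lie under 1 FPKM in every cerebellum library, and 1 cortical double mutant, at 3.99 FPKM for Fos, lies under the other 5 for most genes.

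The spread between libraries of 1 genotype was large for most of these genes. Around the group means, the SD of log2(FPKM + 1) was 0.90 for Fos in the cerebellum and 0.76 in the cortex, against a median of 0.128 and 0.0962 over all tested genes. It lay above that of 95% of tested genes for 6 of the 10 genes in the cerebellum (Fos, Nr4a1, Dusp1, Npas4, Junb and Egr1) and for all 10 in the cortex. Arc was steady in the cerebellum (SD 0.16) and not in the cortex (SD 0.64).

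Libraries of 2 numbers were low for most of the genes in both tissues. Cerebellar double mutant 2 had the lowest FPKM of its group for 6 of the 10 genes, but the highest for Arc, and was neither for Junb, Egr1 and Egr2. Cortical double mutant 2 was lowest of its group for 9 of the 10, all but Npas4. Control 4 was lowest of its group for 8 of the 10 genes in the cerebellum, where it was highest for Egr2, and for all 10 in the cortex. Cortical double mutant 5 was highest of its group for 8 of the 10. Cerebellar control 2 was highest of its group for 9 of the 10. Choroid plexus markers, 4 genes, summed to 112 FPKM in cerebellar double mutant 2 against 714 to 1162 in the other 5 double mutants. In the controls they summed to 762 FPKM in control 4 and 14.4 to 488 in the other 3, so they ran the opposite way there, and their part in the low values was not tested. The depth of double mutant 2, read from the steps between low values, was 1.08 times that of double mutant 1 in cerebellum and 1.32 times in cortex.

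**Figure D2:**
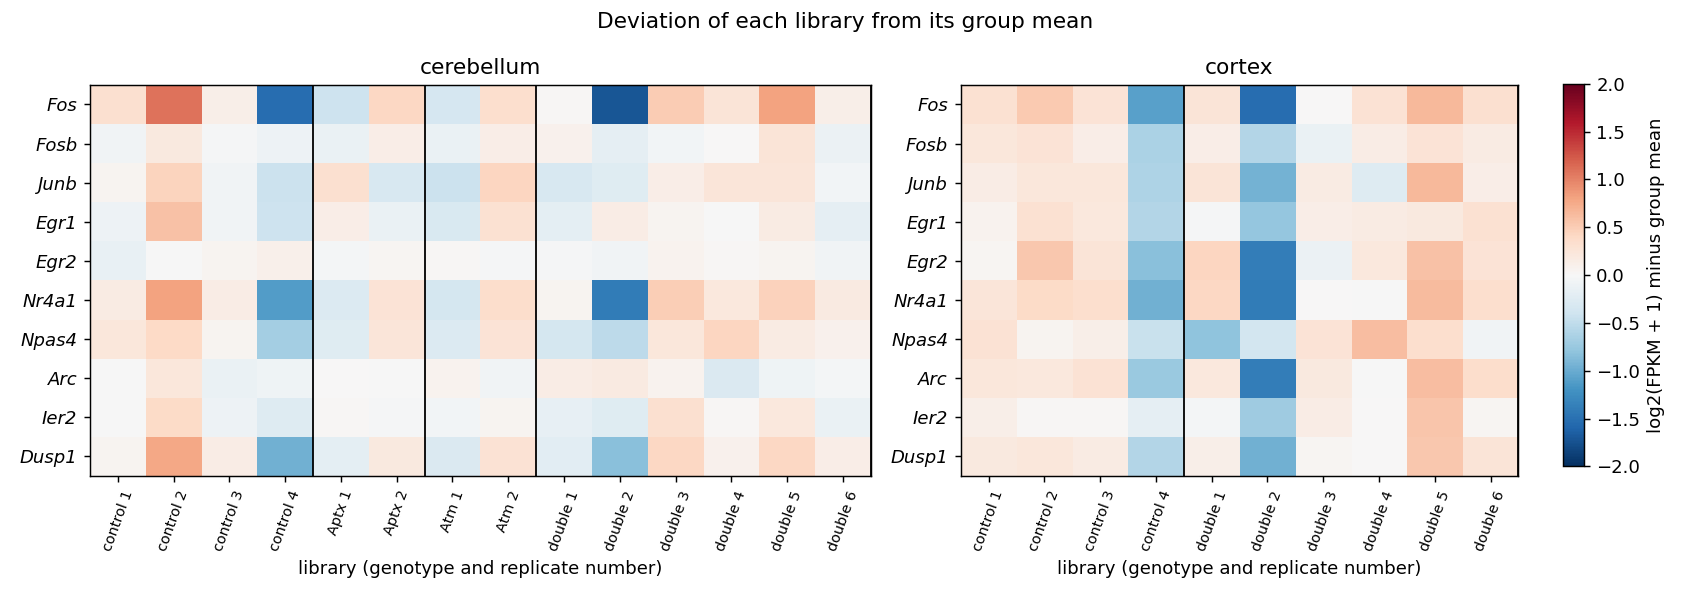
Deviation of log2(FPKM + 1) from the genotype group mean, genes in rows and libraries in columns, for cerebellum (left) and cortex (right); blue is lower and red higher, and vertical lines separate genotypes. Columns double 2 and control 4 are blue for most genes in both tissues, while Arc and Egr2 are pale throughout the cerebellum.

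The first comparison asked whether these genes differed between double mutant and control cerebellum. None of the 8 genes tested was called at an adjusted p below 0.05 (limma with Benjamini-Hochberg adjustment), while 32.4% of all 13277 genes were, and 1 of the 8, Egr1, had an unadjusted p below 0.05. Here and below, the share of all genes with an unadjusted p below 0.05 was not counted, so such counts have no background beside them. For Fos, controls 1 to 4 were at 12.3, 21.7, 10.6 and 2.71 FPKM, and the 6 double mutants ran from 2.26 over a median of 11.2 to 17.7 FPKM. The groups overlapped throughout. The log2 fold change of Fos was 0.00 (SE 0.48), with an interval of 2 SE from -0.97 to 0.97, so a change of nearly 2-fold in either direction was within the error. For Egr1, controls were at 2.44, 4.52, 2.52 and 1.78 FPKM, and the double mutants ran from 1.47 over 1.90 to 2.19 FPKM. The log2 fold change of Egr1 was -0.38 (SE 0.17, adjusted p = 0.0979 with limma). Without control 4, the lowest control, Egr1 was called (log2 fold change -0.52, adjusted p = 0.0323 with limma). For Nr4a1, controls were at 7.66, 12.6, 7.56 and 2.58 FPKM, and the double mutants ran from 1.14 over 5.50 to 6.93 FPKM, all under 3 of the 4 controls. On the log2 scale Nr4a1 differed by -0.45 (SE 0.37, adjusted p = 0.377 with limma). Dusp1 was at 14.02, 23.9, 15.1 and 6.46 FPKM in the controls and ran from 7.43 over 15.2 to 19.2 FPKM in the double mutants (log2 fold change 0.05, SE 0.29). Npas4 was at 1.14, 1.40, 0.898 and 0.139 FPKM in the controls and ran from 0.185 over 0.864 to 1.297 FPKM (log2 fold change -0.09, SE 0.22). Junb was at 6.10, 8.32, 5.56 and 4.12 FPKM in the controls and ran from 3.97 over 5.41 to 6.42 FPKM (log2 fold change -0.14, SE 0.19). All 3 overlapped between the groups. Arc (5.22 to 6.97 FPKM in controls, 4.45 to 6.56 in double mutants) and Ier2 (4.40 to 7.43 and 4.45 to 7.07 FPKM) lay in almost the same range in both groups. The log2 fold changes of Arc and Ier2 were -0.03 (SE 0.10) and 0.00 (SE 0.13). None of the 8 separated the groups without overlap, whereas 21.8% of tested genes did.

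The single mutants were compared with the same 4 controls, so these comparisons share their controls. Arc was lower in the Aptx mutants, at 4.18 and 4.14 FPKM against 5.79, 6.97, 5.22 and 5.45 FPKM in the controls. The difference was -0.40 on the log2 scale (SE 0.13, adjusted p = 0.0449 with limma), the 1 call among the 8 genes in a comparison that called 15.6% of all genes. This call was close to the threshold. With either Aptx library left out, the adjusted p with limma was 0.182 or 0.193, with the log2 fold change at -0.41 and -0.40. It was also lost without Atm mutant 1 or 2, control 1 or 2, or double mutant 3, 5 or 6 (adjusted p with limma between 0.0517 and 0.0833), with no filter on low values (0.0722), with Ddx3y as a covariate (0.056) and with only the compared groups in the fit (0.0642). In the Atm mutants Arc was at 4.51 and 3.97 FPKM, a difference of -0.38 that was not called (SE 0.13, adjusted p = 0.07 with limma). Markers of several cell types separated the Aptx mutants from the controls. The 8 cerebellar markers summed to 727 to 839 FPKM in the controls, 1018 to 1132 in the Aptx mutants, 1027 to 1143 in the Atm mutants and 869 to 945 in the double mutants. The 5 astrocyte markers summed to 326 to 374 FPKM in the controls, 411 to 438 in the Aptx mutants, 446 to 477 in the Atm mutants and 452 to 512 in the double mutants. The 5 brain stem and midbrain markers summed to 1.39 to 6.64 FPKM in the controls and to at most 0.573 FPKM in any mutant. Of these 5, only 1 was above 1 FPKM on average in the controls and 0 in each mutant group. Endothelial and mural markers (19.7 to 26.8 against 27.5 to 29.1 FPKM) and 3 genes listed as hippocampal markers (20.3 to 24.3 against 25.3 to 25.4 FPKM) also did not overlap between controls and Aptx mutants. Of these 3, Prox1 and Zbtb20 had higher medians in cerebellum (5.68 and 14.7 FPKM) than in cortex (3.62 and 9.425 FPKM), and Wfs1 a lower one. Their sum in cerebellum thus does not show hippocampal tissue. The part of all these marker sets in the Arc values was not tested. No gene of the 8 was called in the Atm mutants, where 10% of all genes were, although Arc and Npas4 had an unadjusted p below 0.05.

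Atm mutant 2 had the highest cerebellar value of all libraries for 5 of the 10 genes, Fos, Junb, Nr4a1, Npas4 and Dusp1. Fos was at 20.4 and 32.8 FPKM in the Atm mutants and at 14.4 and 26.5 FPKM in the Aptx mutants. The log2 fold change of Fos against controls was 1.33 (SE 0.65, adjusted p = 0.2 with limma) and 0.95 (SE 0.65, adjusted p = 0.343 with limma). Neither passed the test. Npas4 was at 1.79 and 3.10 FPKM in the Atm mutants, against 1.14, 1.40, 0.898 and 0.139 FPKM in the 4 controls. The fold change of Npas4 on the log2 scale was 0.89 (SE 0.30, adjusted p = 0.074 with limma), and it was called without control 2 (1.02, adjusted p = 0.0463 with limma). Nr4a1 was at 10.7 and 17.98 FPKM in the Atm mutants and 7.76 and 11.7 FPKM in the Aptx mutants. Blood markers, 4 genes, summed to 664 and 1645 FPKM in the Atm mutants and were higher in Atm mutant 2, as was Fos. In the Aptx mutants they summed to 947 and 767 FPKM and were lower in Aptx mutant 2, where Fos was higher. Among the controls they summed to 260 to 439 FPKM in controls 1 to 3. They reached 1196 FPKM in control 4, where Fos was lowest of the controls, at 2.71 FPKM. Their part in these values was not tested.

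Double mutants were then set against the mean of the single mutants, which share the series code of their library names. Of the 8 genes, 0 were called by limma, while 1.98% of all genes were. An unadjusted p below 0.05, for which the share of all genes was not counted, was found for 4 of the 8, Fos, Nr4a1, Npas4 and Arc. For Nr4a1 the 4 single mutants were at 7.76 to 17.98 FPKM and the 6 double mutants at 1.14 to 6.93 FPKM. The log2 difference of Nr4a1 was -1.15 (SE 0.37, adjusted p = 0.145 with limma). For Fos the single mutants lay at 14.4 to 32.8 FPKM and the double mutants at 2.26 to 17.7 FPKM, which overlap. The log2 difference of Fos was -1.14 (SE 0.48, adjusted p = 0.29 with limma). For Npas4 the difference was -0.78 (SE 0.22, adjusted p = 0.093 with limma) and for Arc 0.36 (SE 0.10, adjusted p = 0.0651 with limma), Arc being the 1 gene of the 8 with a difference above 0. Of all tested genes, 50.7% had a difference above 0. The library names fall into 2 ranges of codes, each with 3 double mutants and 2 single mutants. Within the lower and the upper range the log2 difference was -1.16 and -1.12 for Fos, -1.13 and -1.17 for Nr4a1, -0.74 and -0.82 for Npas4 and 0.46 and 0.26 for Arc. With the range as a term among the mutant libraries, a fit that called 1.88% of all genes, 2 of the 8 were called, Npas4 (-0.78, adjusted p = 0.0185 with limma) and Arc (0.36, adjusted p = 0.04 with limma). Without double mutant 4 or control 2, in fits that called 2.71% and 2.62% of all genes, Arc alone was called, and without control 4, in a fit that called 1.99%, Npas4 alone.

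Against each single mutant separately, 0 of the 8 genes were called by limma. Double mutants against Aptx mutants called 0.143% of all genes, and 1 of the 8, Arc, had an unadjusted p below 0.05. Double mutants against Atm mutants called 2.24% at the adjusted p. Arc, Fos, Npas4 and Nr4a1 had an unadjusted p below 0.05, for which the share of all genes was not counted. Aptx against Atm mutants called 0.173%, and 0 of the 8 had an unadjusted p below 0.05. The last cerebellar test asked whether the double mutant differed from the sum of the single effects, a departure that was called for 4.51% of all genes and for 1 of the 8. Arc departed by 0.75 (SE 0.18, adjusted p = 0.0297 with limma). Its log2 differences from the controls were -0.40 in the Aptx mutants, which was called, and -0.38 in the Atm mutants and -0.03 in the double mutants, which were not. The call on Arc was lost without any one of the 4 single mutant libraries or control 1 (adjusted p with limma between 0.0527 and 0.112). The departures of Npas4 (-1.47, SE 0.41, adjusted p = 0.0582 with limma), Fos (-2.28, SE 0.89, adjusted p = 0.151 with limma) and Nr4a1 (-1.84, SE 0.69, adjusted p = 0.137 with limma) did not pass the test.

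**Figure D3:**
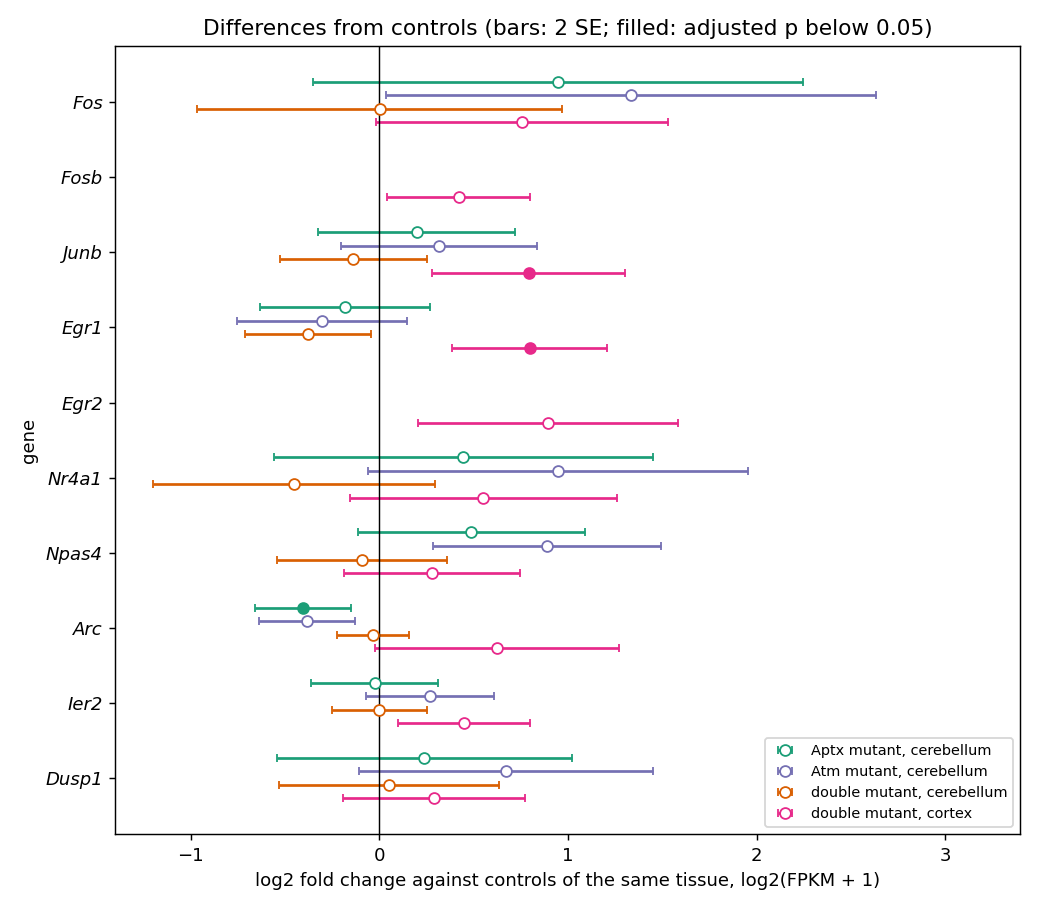
Log2 fold change against controls of the same tissue on the log2(FPKM + 1) scale, with bars of 2 SE, for Aptx, Atm and double mutants in cerebellum and double mutants in cortex; filled points passed an adjusted p of 0.05. Filled points are Arc in Aptx mutants (-0.40) and Junb (0.79) and Egr1 (0.80) in cortex, and all 10 cortical points lie to the right of 0.

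In the cortex, Egr1 and Junb rose in the double mutants. Egr1, a zinc-finger factor of synaptic plasticity, was at 8.18, 9.86, 9.15 and 4.804 FPKM in the controls and ran from 7.85 over 15.9 to 17.9 FPKM in the double mutants. Of the double mutants, 5 lay above all controls, and double mutant 2 lay in the control range. The log2 fold change of Egr1 was 0.80 (SE 0.21, adjusted p = 0.00874 with limma). Junb, an AP-1 subunit, was at 18.6, 19.5, 19.7 and 10.5 FPKM in the controls and ran from 14.7 over 32.8 to 46.8 FPKM in the double mutants. On the log2 scale Junb rose by 0.79 (SE 0.26, adjusted p = 0.0267 with limma). These were 2 of the 10 genes, in a comparison that called 38.8% of all genes. No gene of the 10 had groups without overlap, whereas 27.1% of tested genes did.

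The other 8 genes did not pass the test, and all 10 log2 fold changes were above 0, with a median of 0.59, against 56.2% of all tested genes above 0 and a median of 0.03. Arc was at 30.8, 30.3, 32.2 and 15.2 FPKM in the controls, and the double mutants ran from 14.97 over 47.01 to 62.99 FPKM. The log2 fold change of Arc was 0.62 (SE 0.32, adjusted p = 0.143 with limma). Fos was at 9.52, 11.2, 9.25 and 2.99 FPKM in the controls, and the double mutants ran from 3.99 over 16.4 to 21.7 FPKM. The fold change of Fos was 0.76 on the log2 scale (SE 0.39, adjusted p = 0.137 with limma). For both genes 5 double mutants lay above every control. Double mutant 2 lay under every control for Arc, and above only control 4 for Fos. Egr2 (0.89, SE 0.34), Ier2 (0.45, SE 0.17) and Fosb (0.42, SE 0.19) had adjusted p-values of 0.0555, 0.0576 and 0.0959 with limma. Nr4a1 (0.55, SE 0.35), Dusp1 (0.29, SE 0.24) and Npas4 (0.28, SE 0.23) had adjusted p-values of 0.234, 0.358 and 0.367 with limma.

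In the cortex Egr1 was called whichever single library was left out (adjusted p with limma between 0.00058 and 0.0298), and Junb in 8 of 10 such fits. Without double mutant 2, 9 of the 10 genes were called, all higher and all but Npas4, with Egr1 at 0.95 (SE 0.15), Junb at 0.98 (SE 0.19), Fos at 1.06 (SE 0.26) and Arc at 0.90 (SE 0.19), in a fit that called 36.4% of all genes. Without control 4, the library with the highest Gm10654, only Egr1 was called (0.60, adjusted p = 0.0298 with limma) while 33.9% of all genes were. Junb was not called there (0.59, adjusted p = 0.094 with limma). Gm10654 was high in all 4 cortex controls, which cannot be told apart from genotype. Without double mutant 3, Junb was also not called (adjusted p = 0.0503 with limma). Without double mutant 6 both were called, and without control 2 Egr2 was called as well. With the Ddx3y level as a covariate, Egr1 was called (adjusted p = 0.0393 with limma) and Junb was not (adjusted p = 0.128 with limma), and Junb was not called with no filter on low values (adjusted p = 0.0635 with limma). Markers of cortical tissue summed to 163 to 193 FPKM in the controls and 214 to 270 FPKM in the double mutants. Oligodendrocyte markers, 4 genes, summed to 545 to 646 FPKM in the controls and 305 to 496 FPKM in the double mutants. Astrocyte markers summed to 201 to 233 FPKM in the controls and 235 to 277 FPKM in the double mutants, and brain stem and midbrain markers to 3.76 to 5.18 FPKM and 0.860 to 3.32 FPKM. None of these 4 sums overlapped between the groups. Blood markers summed to 111 to 428 FPKM and 285 to 715 FPKM. All 8 cortical, 4 oligodendrocyte and 5 astrocyte markers were above 1 FPKM on average in both groups. Of the 5 brain stem and midbrain markers, only 2 were so in the controls and 1 in the double mutants. The part of these markers in the result was not tested. The controls also differ from the mutants in the series code of the library names, which cannot be told apart from genotype.

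With all libraries in the fit, the effect of the double mutation differed between tissues for Egr1 and Junb. Subtracting the cortical from the cerebellar effect gave -1.17 (SE 0.28, adjusted p = 0.00479 with limma) for Egr1 and -0.93 (SE 0.33, adjusted p = 0.0427 with limma) for Junb, in a test that called 27.1% of all genes. All 8 genes tested in both tissues had a difference under 0, with a median of -0.71. Over all tested genes, 54.5% had a difference above 0, with a median of 0.03. Egr1 was called whichever single library was left out (adjusted p with limma between 0.000678 and 0.0122), but the call on Junb was lost in 12 of 20 such fits (adjusted p with limma between 0.0514 and 0.106). These left out double mutant 1, 2 or 6 or control 1, 2 or 3 of the cerebellum, or double mutant 1, 3, 5 or 6 or control 1 or 4 of the cortex. Without cortical double mutant 2, 4 of the 8 genes were called, in a fit that called 25.5% of all genes, Junb, Egr1, Arc and Ier2. Double mutants of 1 number carry the same library code in both tissues, controls do not, and over all genes each of the 10 numbers correlated best with its own number in the other tissue. With the number as a replicate block, 5 of the 8 genes were called, in a fit that called 31.6% of all genes. These were Nr4a1 (-1.004, SE 0.16, adjusted p = 0.000539), Egr1 (-1.17, SE 0.21, adjusted p = 0.0015), Fos (-0.76, SE 0.18, adjusted p = 0.00622), Junb (-0.93, SE 0.22, adjusted p = 0.00654) and Ier2 (-0.45, SE 0.15, adjusted p = 0.0333), all with limma.

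The differences between same-numbered libraries show the values behind this. For Nr4a1, cortex minus cerebellum on the log2 scale was 0.97, 0.47, 1.07 and 1.03 in the controls and ran from 1.42 over 1.98 to 2.25 in the double mutants, with no overlap. Double mutant 2, lowest of its group in each tissue, stood at 1.90 and thus among its group. Nr4a1 was the 1 gene of the 8 with groups apart, and 21.4% of tested genes were so. For Egr1 the controls ran from 0.97 to 1.53 and the double mutants from 1.48 to 2.91, with double mutant 2 alone inside the control range. For Fos the controls were at -0.34, -0.89, -0.18 and 0.11, and the double mutants ran from -0.07 over 0.54 to 0.66, 5 of them above all controls. For Arc the double mutants ran from 1.08 over 2.85 to 3.34 and the controls from 1.33 to 2.42, and the blocked test did not call it (adjusted p = 0.16 with limma). Ier2 and Dusp1 were higher in cerebellum than in cortex in every pair.

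**Figure D4:**
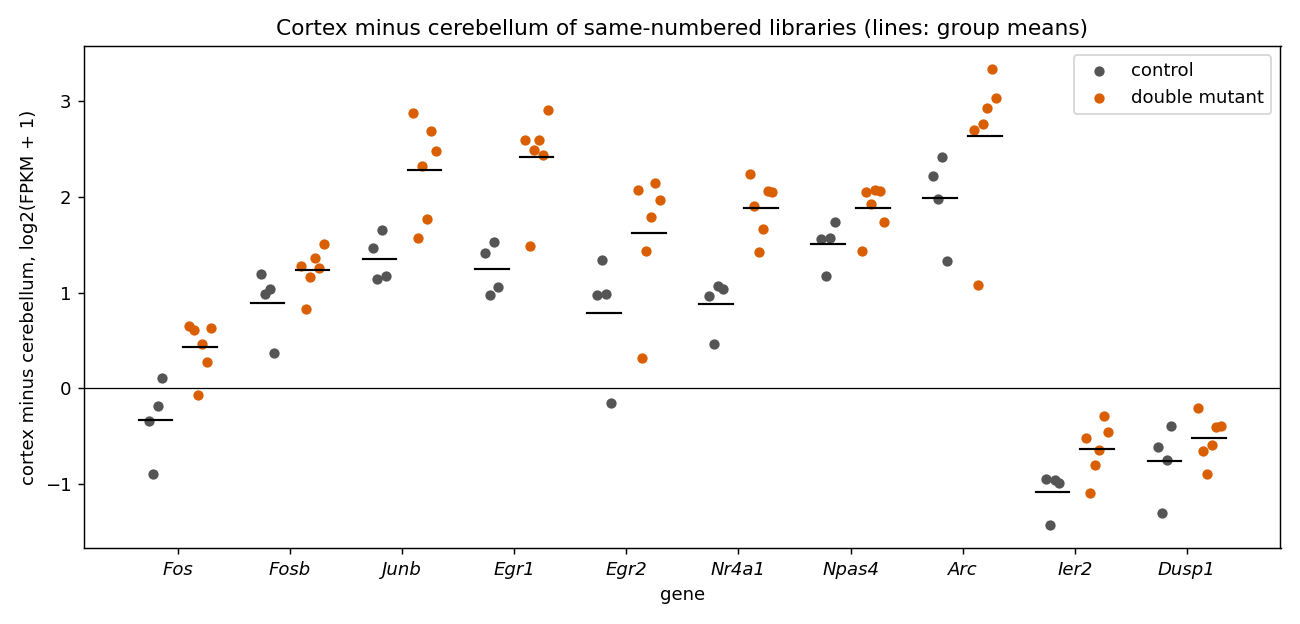
Cortex minus cerebellum log2(FPKM + 1) of libraries with the same number, 1 point per pair and a line at the group mean, for 4 controls and 6 double mutants. The double mutant points of Nr4a1 (1.42 to 2.25) lie above all control points (0.47 to 1.07), and the lone low double mutant point of Egr1, Egr2 and Arc is double mutant 2.

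Several of the genes varied together across libraries once the group means were removed. Correlations with Fos were computed for the other 9 genes in each tissue, 18 relations, with permutations within groups. In the cerebellum (n = 14) Nr4a1 followed Fos most closely (Pearson r = 0.99, permutation p = 5e-05, adjusted 0.00054; Spearman rho = 0.96, permutation p = 3e-05, adjusted 0.00054). Without the 2 libraries farthest from the median of Fos, double mutant 2 and control 4, r was 0.97 (adjusted permutation p = 0.0123). For such values, here and below, the group means removed were those of all libraries, so the libraries left out still entered them. Dusp1 had r = 0.97 (permutation p = 0.00015, adjusted 0.0009) and rho = 0.93 (permutation p = 0.00032, adjusted 0.00192), with r = 0.93 without those libraries. Npas4 had r = 0.88 (permutation p = 0.00061, adjusted 0.0022) and rho = 0.81 (permutation p = 0.00468, adjusted 0.012), with r = 0.75 without them. Fosb (r = 0.72, adjusted permutation p = 0.0173) and Ier2 (r = 0.78, adjusted permutation p = 0.0144) also passed. Junb passed by r (0.59, adjusted permutation p = 0.0451) and not by rho (adjusted permutation p = 0.101). No relation between Arc and Fos was detected in the cerebellum (r = -0.08, permutation p = 0.807, adjusted 0.854, and rho = -0.01, permutation p = 0.978, adjusted 0.978). The same held for Egr1 (r = 0.44, adjusted permutation p = 0.237) and Egr2 (r = 0.02, adjusted permutation p = 0.961).

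In the cortex (n = 10) Arc and Fos had r = 0.97 (permutation p = 0.00465, adjusted 0.0098) and rho = 0.76 (permutation p = 0.0252, adjusted 0.0454). Without double mutant 2 and control 4, r was 0.59 (adjusted permutation p = 0.287), so the relation rested on those 2 libraries. Likewise r went from 0.96 to 0.37 for Egr1, from 0.92 to 0.53 for Junb and from 0.84 to 0.55 for Ier2, none of which passed the test without those libraries (adjusted permutation p of 0.476, 0.299 and 0.404). Egr2, Nr4a1 and Dusp1, each at r = 0.98, fell to 0.85, 0.78 and 0.82 and did not pass either (adjusted permutation p of 0.0679, 0.0965 and 0.0568). Npas4 did not pass with or without those libraries (adjusted permutation p of 0.198 and 0.847). Fosb, the close relative of Fos, still passed the test (r = 0.97, permutation p = 6e-05, adjusted 0.00054; rho = 0.96, permutation p = 6e-05, adjusted 0.00054), with r = 0.91 without those libraries (adjusted permutation p = 0.0123). Among all 45 pairs of the 10 genes the median r was 0.92 in the cortex and 0.56 in the cerebellum, where 10 pairs were not above 0. The 10 points of the cortex include 2 that lie far from the rest, which bears on every one of these values.

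**Figure D5:**
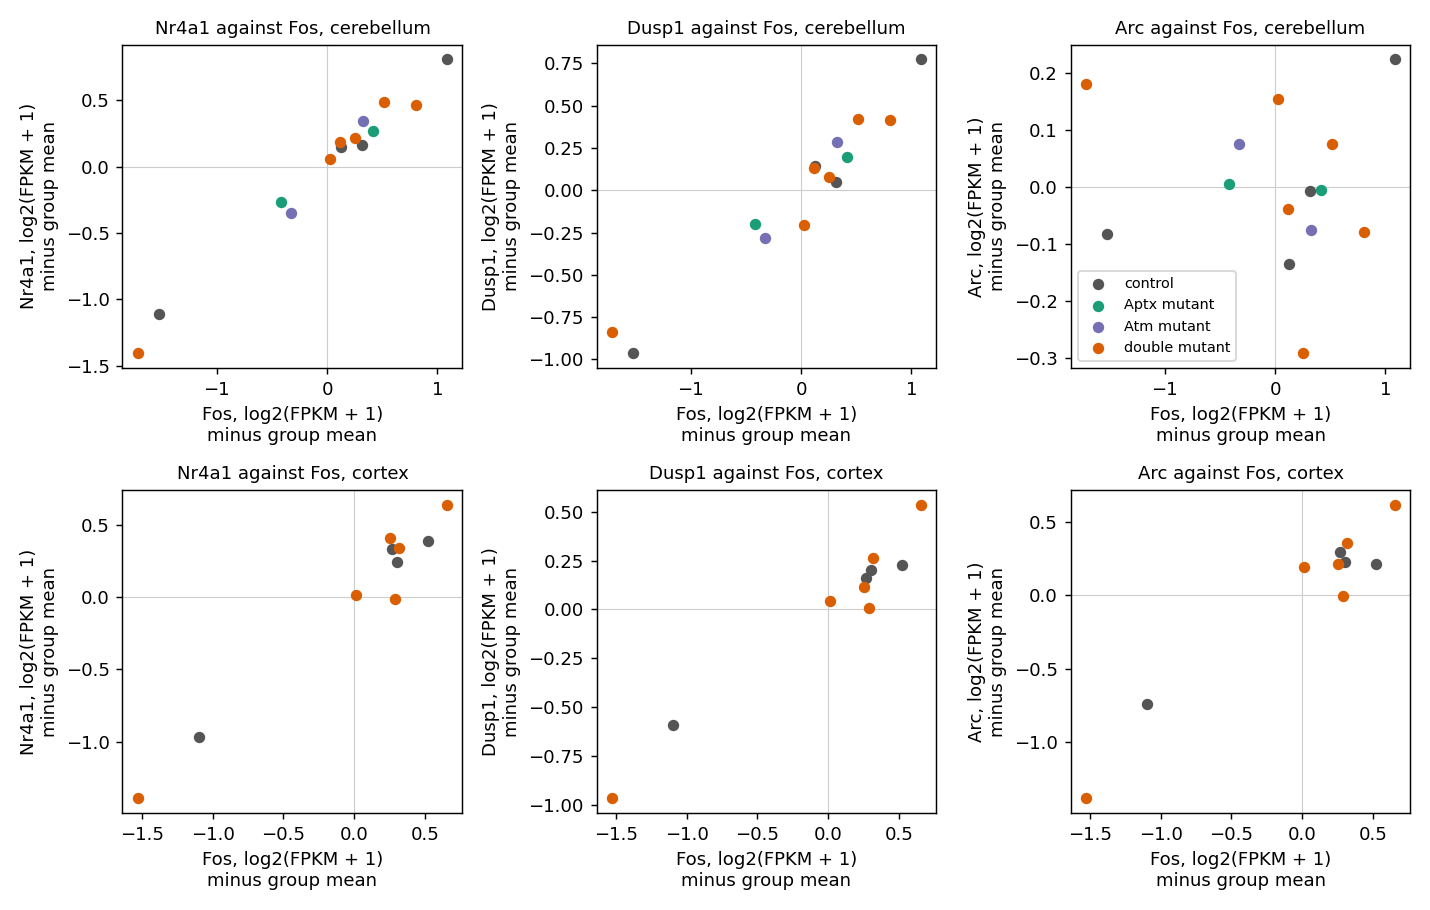
Nr4a1, Dusp1 and Arc against Fos, each as log2(FPKM + 1) minus its group mean, 1 point per library, in cerebellum (top) and cortex (bottom). Nr4a1 and Dusp1 rise with Fos in both tissues (r between 0.97 and 0.99), Arc has r = -0.08 in cerebellum, and 2 points at the lower left set much of the cortical relations. Without those 2 points r in cortex was 0.78 for Nr4a1, 0.82 for Dusp1 and 0.59 for Arc, and none of these passed the test.

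Levels of same-numbered libraries in the 2 tissues were related for some genes. Over the 10 pairs, after removal of group means, Fos had r = 0.95 (exact permutation p = 0.00307, adjusted over 10 relations 0.0202) and rho = 0.73 (exact p = 0.0278, adjusted 0.0927). Npas4 had r = 0.84 (exact p = 0.00405, adjusted 0.0202) and rho = 0.78 (exact p = 0.0102, adjusted 0.0927). Without double mutant 2 and control 4, but with the group means of all pairs kept, r was 0.57 for Fos (exact permutation p = 0.101) and 0.88 for Npas4 (exact permutation p = 0.0181, adjusted 0.0905). Nr4a1 fell from r = 0.92 to 0.13 and Dusp1 from 0.85 to 0.32 without those pairs (exact permutation p of 0.69 and 0.414), so both relations rested on them. Arc had r = -0.23 (exact permutation p = 0.553, adjusted 0.614; rho = -0.19, exact permutation p = 0.62, adjusted 0.689).

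Other genes of the pathway were counted in the cortex and cerebellum. Of all genes tested in the cortex, 24.3% were higher and 14.5% lower in the double mutants, which is the background of the counts that follow. Of 24 other rapidly induced genes tested in the cortex, 11 were higher and 0 lower in the double mutants, with a median log2 fold change of 0.33 against 0.03 over all genes. Egr4, a paralog of Egr1, rose by 0.78 (SE 0.18, adjusted p = 0.0039 with limma), and Cebpb, a leucine-zipper factor, by 0.43 (SE 0.08, adjusted p = 0.00124 with limma). Ier5 (0.40) and the Kruppel-like factor Klf6 (0.25) were also higher. Of 23 activity-regulated effector genes, 13 were higher and 0 lower, with a median of 0.39. These included the phosphatase Dusp14 (0.93, adjusted p = 1.39e-05 with limma), the secreted peptide precursor Vgf (0.76, adjusted p = 4.76e-05 with limma), the neuronal pentraxin Nptx2 (0.65) and neuritin, Nrn1 (0.43). Of 41 upstream kinases and transcription factors, 11 were higher, a share near that of all genes, and 1, the acetyltransferase Ep300 (-0.29), was lower. Among the 11 were Mef2c (0.45), a factor of neuronal differentiation, Ppp3ca (0.36), a catalytic subunit of calcineurin, and Mkl1 (0.35), a partner of the serum response factor. Of the AP-1 subunits outside the 10 genes, 1 of 3 tested was higher, Jund (0.36), and of 12 heat shock genes 2 were higher, Hspd1 (0.20) and Hspa1b (0.35). The medians of the upstream, AP-1 and heat shock lists were 0.09, 0.36 and 0.02. These lists and all 10 genes share the libraries and markers described above.

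In the cerebellum 22.3% of all genes were higher and 10.1% lower in the double mutants. Of 4 AP-1 subunits outside the 10 genes that were tested, 3 were higher in the double mutants, Atf3 (0.70, SE 0.11, adjusted p = 0.000471 with limma), Jund (0.62, SE 0.14, adjusted p = 0.00381 with limma) and Jun (0.52, SE 0.16, adjusted p = 0.0236 with limma). Atf3 is also known as a stress-induced factor. The sums of cerebellar, astrocyte and brain stem markers given above did not overlap between double mutants and controls either, and their part in these values was not tested. Jun was the 1 gene of these 4 called against the mean of the single mutants (0.70, SE 0.16, adjusted p = 0.0391 with limma; 1.98% of all genes were called), and its double mutant effect was higher in cerebellum than in cortex (0.57, adjusted p = 0.0398 with limma). None of the 4 was called in Aptx or Atm mutants against controls. Against the mean of the single mutants 0 genes of the other lists were called by limma. Against Atm mutants the double mutants were lower for Apold1 (-1.07) and Cpeb3 (-0.31). Of 22 other rapidly induced genes, 2 were higher (Gadd45g, 0.50, and Klf6, 0.26) and 1, Amigo3 (-0.36), was lower in the double mutants. Of 21 effector genes, 4 were higher, Dusp14 (0.76) and Plk2 (0.26) among them, and 1 was lower, Cpeb3 (-0.26). Of 41 upstream genes, 3 were higher and 6 lower, with the calcium-dependent kinases Camkk1 (-0.57) and Camk2a (-0.67) among the lower. Of 12 heat shock genes 3 were lower, Hsph1 (-0.32), Hspa8 (-0.29) and Dnajb1 (-0.18). The medians of the AP-1, other rapidly induced, effector, upstream and heat shock lists were 0.57, 0.03, 0.07, -0.02 and -0.07, against 0.06 over all genes. In the Aptx mutants Klf10 (0.58) and Klf6 (0.29) were higher, and in the Atm mutants Apold1 (0.98), Klf6 (0.28), Dusp5 (0.59) and the neurotrophin Bdnf (0.51) were. Aptx mutants had 2 of 22 other rapidly induced, 3 of 21 effector and 4 of 41 upstream genes higher, where 10.4% of all genes were, and 1 of 41 upstream and 1 of 12 heat shock genes lower, where 5.16% of all genes were. Atm mutants had 2 of 22 other rapidly induced, 4 of 21 effector and 3 of 41 upstream genes higher, where 6.78% of all genes were, and 0 lower, where 3.25% were. Between tissues, the double mutant effect was lower in cerebellum for 4 of 21 effector, 12 of 41 upstream and 3 of 12 heat shock genes, where it was lower for 11.7% of all genes. It was higher in cerebellum for 1 of 3 AP-1 subunits and 4 of 41 upstream genes, where it was higher for 15.4% of all genes. Camk2a (-1.16), Dusp4 (-0.77), Vgf (-0.99) and Nrn1 (-0.49) were among the lower.

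The genes whose pattern was most like the mean of the 10 were found among 11289 genes tested in both tissues, by the smaller of 2 Pearson correlations over 14 cerebellum and 10 cortex libraries. Spty2d1 (r = 0.96 in cerebellum and 0.88 in cortex), Nr4a2 (0.85 and 0.90), Cyr61 (0.84 and 0.96), Btg2 (0.84 and 0.90) and Ppt1 (0.81 and 0.85) led the order. Klf2 (0.82 and 0.79), Sik1 (0.87 and 0.79), Adat2 (0.82 and 0.79), Golph3 (0.86 and 0.79) and Csrnp1 (0.82 and 0.78) followed. Nr4a2 is the paralog of Nr4a1, and Btg2 and Cyr61 are known as rapidly induced genes. The values are descriptions without a test, since the libraries with low values enter all of them. In the cortex, control 4 was the lowest of all libraries for 9 of the 10 genes, all but Cyr61, where double mutant 2 was. In the cerebellum, Nr4a2 ran from 1.14 FPKM in double mutant 2 to 10.7 FPKM in Atm mutant 2.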

How the data were processed

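The deposited values are FPKM made by the authors, who removed ribosomal RNA, mapped reads to mm9 with BWA 0.5.10 and counted them with HTSeq (version not given in the sources used here). Read counts were not analysed here. Where steps between low FPKM values could be read, depth relative to double mutant 1 ran from 0.641 to 1.18 in 8 further cerebellum and 0.939 to 1.33 in 4 further cortex libraries, and it is unknown elsewhere.

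Values were transformed as log2(FPKM + 1), so fold changes of low genes are understated. Genes with 1 FPKM in at least 2 cerebellum (13277) or 4 cortex libraries (12815) were tested with limma 3.58.1 in R 4.3.3 (empirical Bayes with trend, two-sided, Benjamini-Hochberg over genes), called at an adjusted p below 0.05. The 14 cerebellum libraries entered 1 fit. Labels name samples, so p-values measure the spread between these samples, which the study describes as separate mice. Numbers pair libraries across tissues (correlation of deviations 0.13 to 0.50, each of 10 highest with its own number), not within a tissue. The script was tested on simulated data. Permutation tests used 100000 draws within groups or all 17280 pairings. Motifs were searched in RefSeq windows. The 10 genes and all lists were chosen with earlier results of these data known. Named genes were the 10, up to 4 called genes with the smallest adjusted p of each list and comparison, and the 10 most alike in pattern. Symbols of uncharacterised genes were passed over there.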

Additional observations from a re-analysis of the deposited data

Results flagged for a closer look

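Among 40 groups of 4 or 6 libraries, 5 held a library whose gap to the rest was large for its group's range (Dixon's test), where chance flags about 5% of groups. Cortex control 4 was far below the other 3 controls for Junb (10.5 against 18.6 to 19.7 FPKM), Nr4a1 (6.34 against 16.0 to 17.8 FPKM), Arc (15.2 against 30.3 to 32.2 FPKM) and Dusp1 (4.70 against 8.59 to 9.06 FPKM). Cerebellar double mutant 2 was far below the other 5 double mutants for Nr4a1 (1.14 against 4.88 to 6.93 FPKM). The genes share libraries, so these are not independent.

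Whether the double mutation acted alike in both tissues was tested as an interaction (cerebellum minus cortex), first without pairing libraries by number. It passed for Egr1 (-1.17, adjusted p = 0.00479 with limma) and Junb (-0.93, adjusted p = 0.0427 with limma), in a test that called 27.1% of all genes. With the number as a replicate block, 5 of the 8 genes were called, Fos, Junb, Egr1, Nr4a1 and Ier2, in a fit that called 31.6% of all genes. Without the block, the call on Junb was lost in 12 of 20 fits with 1 library left out (adjusted p with limma up to 0.106).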

How the results depend on the processing

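Of the values of single genes under all alternatives, 1737 of 1852 kept their direction and side of the threshold, 36 were lost, 30 were gained and 49 changed sign, 41 of these with 1 library left out and 0 of them for a called value. The same alternatives were run for the double mutant against each single mutant, for Aptx against Atm mutants and for additivity as an addition chosen after seeing the data.

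Between double mutant and control cerebellum, uncalled effects near 0 changed sign for Fos with quantile normalization (-0.051), median rescaling (-0.045) and the replicate block (-0.23), for Dusp1 with quantile normalization (-0.0077) and the block (-0.084), and for Npas4 with Ddx3y (0.028). Egr1 changed sign against Atm mutants with the block (0.036) and between Aptx and Atm mutants with Ddx3y (-0.011).

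Counts of the 8 or 10 genes called moved as follows. For Aptx mutants 1 became 0 with no filter, with Ddx3y and with only the compared groups. For Atm mutants 0 became 1 (Arc) with quantile normalization, median rescaling and the block. Against the mean of single mutants 0 became 1 with median rescaling and 2 with the code range. The additivity test gave 2 with quantile normalization, the cortex 1 with no filter or Ddx3y and 0 with the block, and the tissue difference 1 with no filter and 5 with the block. Numbers do not pair libraries within a tissue (2 of 18 pairs correlated best with their own number), so the block there is given only as counts and as effects that changed sign. Counts of all genes called moved to 1344 with Ddx3y and 1216 with only the compared groups (Aptx mutants, from 2070), to 846 with the block and 524 with only the compared groups (Atm mutants, from 1331), to 7 with the block (mean of single mutants, from 263), to 7 with no filter, 11 with no trend and 2 with the block (against Aptx mutants, from 19), to 115 with Ddx3y and 44 with the block (against Atm mutants, from 297), to 14 with Ddx3y (Aptx against Atm mutants, from 23), to 140 with the block (additivity, from 599) and to 2340 with Ddx3y and 3042 with the block (cortex, from 4970). The cause was not tested.

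With 1 library left out, the genes of the 8 or 10 called ranged from 0 to 1 for double mutants, Aptx mutants and Atm mutants against controls, for the mean of single mutants and against Atm mutants, from 0 to 2 for additivity, from 1 to 9 in cortex and from 1 to 4 for the tissue difference. All genes called ranged from 469 to 2620 (Aptx mutants), 337 to 1774 (Atm mutants), 89 to 360 (mean of single mutants), 2 to 45 (against Aptx mutants), 42 to 374 (against Atm mutants), 7 to 25 (Aptx against Atm mutants) and 114 to 889 (additivity). Log2 differences that changed sign ranged, for double mutants against controls, from -0.51 to 0.36 (Fos), -0.28 to 0.0087 (Junb), -0.32 to 0.038 (Npas4), -0.078 to 0.041 (Arc), -0.089 to 0.13 (Ier2) and -0.27 to 0.31 (Dusp1). The range for Aptx mutants was -0.12 to 0.51 (Junb), -0.32 to 0.011 (Egr1), -0.11 to 0.10 (Ier2) and -0.082 to 0.50 (Dusp1), for Atm mutants -0.11 to 0.74 (Junb) and -0.61 to 0.00056 (Egr1), for the mean of single mutants -0.29 to 0.019 (Egr1), against Aptx mutants -0.040 to 0.073 (Ier2) and -0.38 to 0.011 (Dusp1), against Atm mutants -0.38 to 0.23 (Egr1), between Aptx and Atm mutants -0.81 to 0.029 (Fos), -0.54 to 0.30 (Junb), -0.18 to 0.43 (Egr1) and -0.10 to 0.054 (Arc), for additivity -0.20 to 0.42 (Egr1) and for the tissue difference -0.56 to 0.019 (Dusp1). A group reduced to 1 library was assumed to vary like the others. Without read counts the precision of low genes such as Npas4 in cerebellum is unknown.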
